A study of Mus musculus with 12 samples.

Results

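The genes of the extracellular matrix, of the proteases and inhibitors that remodel it, and of the integrins that bind it were compared between 3 sorted cell populations of the mouse dentate gyrus. Members were chosen by gene symbol alone: collagens, laminins, nidogens, fibulins, thrombospondins, tenascins, lecticans and link proteins, small proteoglycans, lysyl oxidases, matrix metalloproteinases (MMPs), ADAM and ADAMTS proteases, tissue inhibitors of metalloproteinases (TIMPs), serpins and integrin subunits that were above 0 in 4 or more libraries. Of 10749 genes listed, 9544 met that minimum and 107 of those had a matching symbol. 4 further matches, Itgb3, Col8a2, Mmp12 and Adamts8, were above 0 in fewer than 4 libraries and were left out. The cell type markers and pathway genes used below that were listed all lie on the + strand. No gene that overlaps exons of a member from the opposite strand is listed, Col4a1 beside Col4a2 among them. Genes of the other strand may therefore be missing, so shares and ranks within a family cover listed genes only. 3 of the 107 carry a matching symbol without belonging to the family it was matched to. Col4a3bp encodes a ceramide transfer protein, Itgb1bp2 a cytoplasmic integrin-binding chaperone, and Itgbl1 a secreted protein with integrin-like repeats. Not every ADAM or ADAMTS symbol names an active protease: Adam23 is non-catalytic, and Adamtsl1, Adamtsl2 and Adamtsl3 are ADAMTS-like genes.

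All cells came from 8-week-old LPA1-GFP mice, which carry a transgene with green fluorescent protein (GFP) driven by the gene of the lysophosphatidic acid receptor LPA1, on an FVB/N-Swiss Webster background rederived into C57BL/6. The stem group held cells positive for GFP, EGFR and Prominin1. The progenitor group held GFP-positive cells with the other 3 combinations of EGFR and Prominin1. The niche group held GFP-negative cells of whatever type. Markers of other cell types were also read in the GFP-positive groups, as given below. Each group had n = 4 libraries, made from amplified RNA of 1000 cells, and nothing in the labels tells if a replicate is a single animal or a pool. The p-values therefore measure only how far these libraries differ, which may be technical.

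In the brain, the matrix consists of a basement membrane around vessels and meninges, built from laminins, type IV collagen and nidogens, and a looser mesh of hyaluronan, lecticans, link proteins and tenascins between cells. Fibrillar collagens and small leucine-rich proteoglycans are mostly products of fibroblast-like cells. MMPs, ADAMs and ADAMTS enzymes cut these proteins, TIMPs and serpins hold proteases in check, and integrins are paired alpha and beta subunits that anchor cells to the matrix. Leukocytes have integrins of their own, with the beta-2 subunit.

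Levels below are reads corrected for exon length and library depth and scaled between libraries (scaled RPKM), and fold changes are differences on the log2(scaled RPKM + 1) scale with their standard error (SE). Depth was 7597256 to 22854036 reads per library, and 8037 to 9700 genes were above 0. Niche replicate 1 stood apart: its summed red cell markers reached 1078500 against 37242 to 180600 in the other niche libraries, its mature neuron markers 147 against 558 to 957, and it was the lowest niche library for 44 of the 90 tested members. Progenitor replicate 1 was the lowest of its group for 39 and the highest for 37. Of the 3 genes behind the sort, only Egfr was listed, so those of LPA1 and Prominin1 could not be checked. Egfr was at 24.7 to 38.6 across stem, 1.10 to 9.98 across progenitor and 1.22 to 21.9 across niche. Of 10 genes of neural stem cells and radial glia, 7 were listed and all were above 0 in every library. Id4 was lower in stem than in both other groups, with log2 fold changes of -2.07 (limma adjusted p = 0.00286) and -2.23 (0.000508). Hes1 was lower in stem than in niche (-2.39, 0.00216) and not called against progenitor (-1.55, 0.0663). Fabp7 was called only between progenitor and niche, higher in progenitor (1.43, 0.00583). Sox2 (0.26 and 0.32 in stem against progenitor and niche, limma adjusted p = 0.834 and 0.546) and Nes (-0.24 and 0.53, 0.907 and 0.484) did not pass. Vim and Hes5 passed in no comparison. Markers of macrophages and microglia, 11 of 24 on the list and none of them at 0 in any library, summed to 3802 to 14852 across stem, 171 to 419 across progenitor and 3424 to 5895 across niche. All 11 were higher in stem than in progenitor. In sorted bulk samples, fewer cells of a type and less RNA per cell cannot be told apart, for the members too.

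The members that set the stem group apart were few and strongly changed. Mmp9, a gelatinase, was more than an order of magnitude higher in stem than in both other groups, and Serpinb8, an intracellular protease inhibitor, was higher than in both as well. The leukocyte integrin subunits Itgam and Itgb2 were high in stem and in 3 of the 4 niche libraries, and under 2 in every progenitor library. Progenitor libraries were richest in the small proteoglycans Dcn, Lum and Bgn. Niche libraries had the highest mean for 61 of the 107 members (57%, beside 41.9% of the 9544 genes above 0 in 4 or more libraries), a count that rests on the scaling between libraries. Among them were tenascin-R, hyaluronan link protein 1 and the integrin subunits Itgav, Itgb5 and Itga7.

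Of the 107 members, 90 had enough reads to be tested with limma over 8360 genes. Between stem and progenitor 9 were called, 4 higher and 5 lower in stem, which is 10% of those tested beside 7.11% of all genes tested (3.71% higher and 3.4% lower). Between stem and niche 17 were called, 3 higher and 14 lower in stem (18.9% of members beside 21.6% of all genes, 10.9% higher and 10.7% lower). Between progenitor and niche 12 were called, 5 higher and 7 lower in progenitor (13.3% beside 11.5%, 5.68% higher and 5.78% lower). The comparisons share groups, so their counts are not independent. Any difference among the 3 groups was called for 20 members (22.2% beside 22% of all genes), so the members as a whole changed about as often as other genes. Median log2 fold changes of the tested members were -0.28, -0.56 and -0.17 in the 3 comparisons, beside -0.06, 0.09 and 0.15 for all genes. By role, the median between stem and progenitor was lowest, -1.41, for the lecticans, link proteins and small proteoglycans. It was 0.19 and 0.16 for the integrin alpha and beta genes and 0.26 for the lysyl oxidases, with 1 gene tested. Between stem and niche it was -1.12 for the MMPs, -1.20 for the proteoglycan group, -1.24 for the fibrillar collagens and -1.40 for the ADAMs. Between progenitor and niche it was 2.02 for the proteoglycan group and -0.67 for the MMPs.

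Scaling moved the split of directions against niche. Between stem and niche, scaling by library size alone gave 5 members higher and 6 lower, and the median of all genes moved to 0.58. Between progenitor and niche, library size scaling gave 8 higher and 5 lower, with the all-gene median at 0.62, and median-of-ratios scaling gave 2 higher and 11 lower, with the all-gene median at 0.00. The main scaling put these medians at 0.09 and 0.15, and changes are given relative to it. Single libraries moved the counts as well. For each comparison, here and for the calls of single members below, only libraries of the 2 groups compared were left out singly. Leaving out a library of the third group was not examined. Each such fit had 1 library fewer and a looser filter on reads, so a call can be lost while its fold change hardly moves. Without niche replicate 1 the counts rose to 28 members between stem and niche (2 higher, 26 lower). Between progenitor and niche they rose to 24 (5 higher, 19 lower). The count between stem and niche fell to 9 to 11 without any 1 stem library or niche replicate 3 or 4, that between progenitor and niche to 5 to 7 without progenitor replicate 2, 3 or 4 or niche replicate 3, and that between stem and progenitor to 4 without stem replicate 2.

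**Figure D1:**
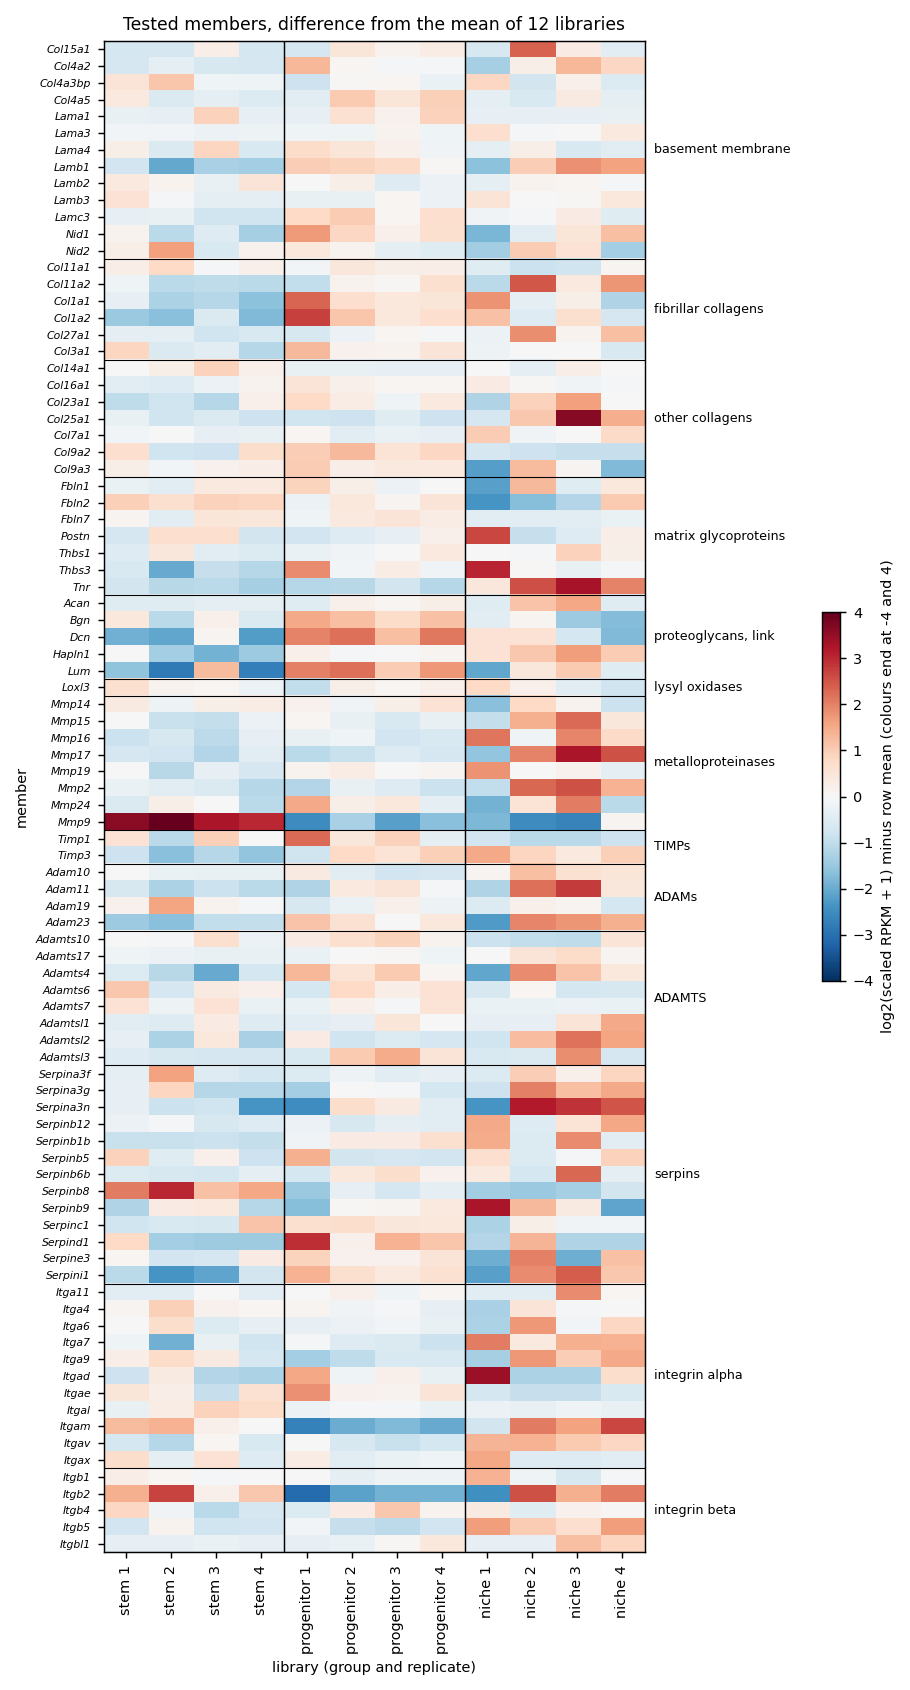
Levels of the 90 tested members in the 12 libraries, as log2(scaled RPKM + 1) minus the mean of each row, with members in rows by role and libraries in columns by group. Red marks a library above the row mean and blue one below; Mmp9 and Serpinb8 are red in the 4 stem libraries, Itgam and Itgb2 are blue in the 4 progenitor libraries, and niche replicate 1 differs from the other niche libraries in many rows.

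The basement membrane group held 14 members by symbol, 13 of them tested. Lamc3, a gamma chain of laminins, was called lower in stem than in progenitor and Lamb1, the widely expressed laminin beta chain, lower in stem than in niche. No member of the group passed between progenitor and niche with limma (1 at an unadjusted p under 0.05). Lamb1 (chromosome 12, 31265234 to 31329644) was at 1.82, 0.145, 0.961 and 0.843 in stem libraries 1 to 4, 8.41, 7.82, 7.18 and 3.94 in those of progenitor and 0.528, 8.37, 16.1 and 13.5 in those of niche. Every progenitor library lay above every stem library, while niche replicate 1 lay among the stem values. The log2 fold change was -2.06 ± 0.66 between stem and niche (SE, limma adjusted p = 0.0358), and it was -2.04 ± 0.66 (0.0801) between stem and progenitor. The first call was lost without any 1 of the libraries of these groups other than niche replicate 1 (0.0512 to 0.105). Lamc3 was at 0 to 0.422 across stem, 0.855 to 2.56 across progenitor and 0.245 to 1.18 across niche. Stem and progenitor did not overlap, and differed by -1.20 ± 0.34 on the log2 scale (SE, limma adjusted p = 0.0428), and the call was lost without any 1 library of these groups other than progenitor replicate 3 (0.0703 to 0.145).

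Lamb2, the beta chain found at vessels and synapses, varied little, with means of 5.52 ± 1.5 in stem, 4.2 ± 1.13 in progenitor and 4.44 ± 0.812 in niche (SD, n = 4). Its 3 log2 fold changes lay between -0.08 and 0.32, with limma adjusted p of 0.712 to 0.927. The nidogens link laminin to type IV collagen. Nid1 was at 0.732 to 3.74 in stem and 3.98 to 13.2 in progenitor, ranges that did not overlap, without passing the test (-1.55 ± 0.62, limma adjusted p = 0.182). Nid2 was highest in stem replicate 2 at 8.67, and its groups overlapped. Col4a2, a chain of the basement membrane collagen, was at 1.22 to 1.73 in stem and 2.38 to 7.91 in progenitor, again without overlap and without a call (-0.92 ± 0.56, limma adjusted p = 0.466). Against niche, Col4a2 passed in stem only with niche replicate 1 left out (-1.48, limma adjusted p = 0.0213). The other laminin chains, Col4a5 and Col15a1 had group means below 3, and Col4a3 was not tested.

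Type I collagen, the main collagen of fibrous tissue, was low in stem, while the other fibrillar collagens gave 1 call. Col1a2 (chromosome 6, 4504814 to 4541544) was at 0.871, 0.657, 2.53 and 0.549 in stem libraries 1 to 4, 33.9, 10.5, 6.06 and 7.48 in those of progenitor and 10.8, 2.69, 7.24 and 2.29 in those of niche. Every progenitor library exceeded every stem library, and progenitor replicate 1 was far above its group. The fitted log2 difference between stem and progenitor was -2.62 ± 0.59 (SE, limma adjusted p = 0.012), and this call held without any 1 library of these groups. Its partner chain Col1a1 was also lowest in stem, 1.82, 0.486, 0.626 and 0.153 in stem and 16.7, 4.64, 3.76 and 3.99 in progenitor, but missed the threshold (-2.06 ± 0.63, limma adjusted p = 0.064). Col3a1 overlapped between the groups, at 0.038 to 3.13 in stem and 1.49 to 4.52 in progenitor. Col27a1 was lower in stem than in niche (-1.27 ± 0.43, limma adjusted p = 0.0464), at 0.0171 to 0.404 against 0.511 to 5.47; it fell outside the rule for named genes and is given because it was called. Col11a1 and Col11a2 passed in no comparison, and Col5a1 was not tested.

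Among the other collagens, a chain of the cartilage-type collagen IX was higher in progenitor than in niche, and a membrane collagen of neurons was higher in niche than in both other groups. Col9a2 was at 2.05, 0.0906, 0.0691 and 2.11 in the stem libraries, 2.77, 3.71, 1.77 and 2.4 in the progenitor libraries and 0.207, 0.0664, 0 and 0 in the niche libraries. All progenitor libraries lay above all niche libraries, where at most 1 read was found, and 2 of the 4 stem libraries were close to progenitor. The log2 fold change between progenitor and niche was 1.75 ± 0.42 (SE, limma adjusted p = 0.0129), a call that held without any 1 library. With so few niche reads the fitted value depends on the pseudocount. Summed over the group, progenitor had 212 reads and niche 2, a ratio at equal depth of 49.1 (exact 95% interval 13.4 to 408, counting error only). Col9a3, its partner chain, was the most abundant of these collagens in stem and progenitor, with means of 4.77 ± 0.648 and 6.61 ± 1.92 (SD, n = 4), and passed in no comparison. Col25a1, a collagen with a membrane anchor made by neurons, was at 0.135, 2.8, 21.7 and 3.91 in niche replicates 1 to 4 and at most 0.46 in any stem or progenitor library. Its log2 fold changes were -2.01 ± 0.63 between stem and niche (SE, limma adjusted p = 0.0334) and -2.12 ± 0.63 between progenitor and niche (0.0407). The first was lost without any 1 stem library or niche replicate 3 or 4 (0.0515 to 0.0849), and the second without any 1 library other than niche replicate 1 (0.0551 to 0.103). Without niche replicate 3 they were -1.29 (0.0515) and -1.40 (0.0551). Summed mature neuron markers, 8 of 15 on the list, were 147 to 957 in niche, 24.6 to 40.8 in stem and 37.6 to 69.6 in progenitor, with niche replicate 1 lowest of its group as for Col25a1; their part in the result was not tested. Col7a1, Col14a1, Col16a1 and Col23a1 passed in no comparison, and Col20a1 and Col9a1 were not tested.

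The matrix glycoproteins gave 1 call in each direction between stem and niche. Tnr encodes tenascin-R, a glycoprotein of perineuronal nets made by oligodendrocyte lineage cells and interneurons (chromosome 1, 159523769 to 159931729). It was at 0.547, 0.195, 0.224 and 0.0152 in the stem libraries, 0.166, 0.185, 0.535 and 0.175 in the progenitor libraries and 2.54, 14.4, 24.2 and 9.24 in the niche libraries. Every niche library lay above all others, niche replicate 1 least so. The log2 fold changes were -3.15 ± 0.52 between stem and niche (SE, limma adjusted p = 0.000431) and -3.12 ± 0.52 between progenitor and niche (0.000935), and both held without any 1 library. Markers of oligodendrocyte precursors, 7 of 12 on the list, summed to 431 to 674 in niche, 116 to 168 in progenitor and 41.7 to 84.1 in stem. Those of oligodendrocytes, 6 of 13, summed to 2624 to 5839 in niche, 2173 to 6186 in progenitor and 146 to 614 in stem. None of these 6 was called between progenitor and niche with limma. Niche replicate 1, lowest of its group for Tnr, had the highest precursor sum, 674, of which Cspg5 was 541, while Pdgfra (10.6), Cspg4 (0.321) and Pcdh15 (0) were lowest there. Its mature neuron sum was 147, also the lowest of the group. The part of these cells in the result was not tested.

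Fbln2, fibulin-2, which binds basement membrane and elastic fibre proteins, went the other way. It was at 15, 11.9, 14.7 and 14.1 in the stem libraries, 6.05, 10.03, 7.99 and 10.9 in the progenitor libraries and 0.624, 1.56, 2.7 and 16.2 in the niche libraries. The stem libraries were tightly grouped, and 3 of the niche libraries lay far below them while niche replicate 4 lay above. The log2 fold change between stem and niche was 1.88 ± 0.60 (SE, limma adjusted p = 0.0349), lost without any 1 library of these groups other than niche replicate 4 (0.0619 to 0.0828). Fbln1 had the highest mean of the group in progenitor, 9.54, and overlapped in every comparison. Postn, periostin, a matrix protein of fibroblasts, reached 19 in niche replicate 1 and at most 4.03 in any other library. Thbs3, a thrombospondin, was at 47 in that niche library and at 20.5 in progenitor replicate 1, against 0.416 to 6.03 elsewhere. All stem libraries lay below all others for Thbs3, without a call (-1.66 ± 0.71 and -1.86 ± 0.71, limma adjusted p = 0.225 and 0.0755). Thbs1, known for angiogenesis and synapse formation, stayed under 2 in every library. Postn, Thbs1, Thbs3, Fbln1 and Fbln7 passed in no comparison.

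Small proteoglycans were high in progenitor, Dcn and Lum called above stem and Dcn and Bgn above niche. Dcn, decorin, which coats collagen fibrils (chromosome 10, 97479609 to 97518143), was at 4.33, 3.77, 20.7 and 3.28 in stem libraries 1 to 4, 78.7, 92.1, 45 and 85.9 in those of progenitor and 28.9, 29.1, 11.4 and 4.9 in those of niche. Progenitor libraries lay above all others, and stem replicate 3 was well above the other stem libraries. The fitted log2 difference was -3.40 ± 0.60 between stem and progenitor (SE, limma adjusted p = 0.00245), which held without any 1 library. Progenitor exceeded niche by 2.20 ± 0.60 (limma adjusted p = 0.0267), lost without progenitor replicate 1, 2 or 4 or niche replicate 3 or 4 (0.0542 to 0.0816).

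Lum, lumican, a second fibril-binding proteoglycan, lies 46984 bases from Dcn on chromosome 10. It was at 1.44, 0.0417, 17.1 and 0.13 in the stem libraries, 29.3, 33, 14.1 and 24 in the progenitor libraries and 0.761, 9.18, 14.3 and 4.3 in the niche libraries. Stem replicate 3 again stood out, at a level within the progenitor range, and the other stem libraries were near 0 or just above 1. The log2 fold change between stem and progenitor was -3.22 ± 0.84 (SE, limma adjusted p = 0.0275), and it was lost without stem replicate 1, 2 or 4 or progenitor replicate 1, 2 or 4 (0.0633 to 0.115). Bgn, biglycan (chromosome X, 73483602 to 73495933), had the highest mean of all members in progenitor. It was at 66.6, 23.4, 57.5 and 32.9 in the stem libraries, 145, 117, 83.2 and 113 in the progenitor libraries and 36, 54.4, 17.5 and 14.2 in the niche libraries, so that progenitor overlapped neither group. Between progenitor and niche the log2 fold change was 2.04 ± 0.44 (SE, limma adjusted p = 0.00645), which held without any 1 library, and between stem and progenitor it was -1.41 ± 0.44 (0.0665).

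Decorin, lumican and type I collagen are products of fibroblasts and mural cells. Markers of fibroblasts and meninges, 7 of 12 on the list, summed to 3.78 to 36.1 across stem, 44.6 to 189 across progenitor and 51.8 to 187 across niche. Stem replicate 3 had the highest sum of its group and progenitor replicate 1 that of all libraries, while Pi16, a defining marker of adventitial fibroblasts, was at 0 in 10 of the 12. Mural markers, 7 of 14, summed to 11.9 to 186 across stem, 682 to 1671 across progenitor and 565 to 1794 across niche. Cnn1, a smooth muscle gene, was at 0 in 6 libraries. Both sums were lower in every stem library than in any other library. Of 6 fibroblast markers tested, 1 was called lower in stem than in progenitor, Slc6a13 (-3.09, limma adjusted p = 0.0459). Against niche, Pdgfra was lower (-3.79, 3e-04) and Aldh1a2 higher in stem (1.65, 0.0262). In progenitor, Aldh1a2 (2.11, limma adjusted p = 0.0118) and Slc22a6 (2.29, 0.0346) were higher than in niche and Pdgfra was lower (-2.69, 0.00835). Pdgfra is also on the list of oligodendrocyte precursors. It was at 10.6, 62.9, 74.3 and 33.3 in niche replicates 1 to 4, beside fibroblast sums of 187, 93.8, 119 and 51.8. Of 6 mural markers tested, 5 were lower in stem than in progenitor and 5 than in niche. None was called between progenitor and niche (1 at an unadjusted limma p under 0.05). The part of these cells in the levels of Dcn, Lum and Col1a2 was not tested.

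Hapln1, the link protein that ties lecticans to hyaluronan in perineuronal nets (chromosome 13, 89539796 to 89611652), had its highest levels in niche. It was at 6.88, 2.06, 1.13 and 1.87 in the stem libraries, 8.05, 6.68, 6.92 and 7.53 in the progenitor libraries and 10.8, 15.8, 24.2 and 14.9 in the niche libraries. Niche overlapped neither group, and stem replicate 1 lay within the progenitor range. On the log2 scale the difference between stem and niche was -2.27 ± 0.47 (SE, limma adjusted p = 0.00259), a call that held without any 1 library. The difference between progenitor and niche was -1.02 ± 0.47 (0.174). Acan, the aggrecan core protein, was at most 3.04 in any library and passed in no comparison, and Hapln4 was not tested. Of the lysyl oxidases, which crosslink collagen, Loxl3 passed in no comparison, with means of 9.5 ± 2.71, 8.01 ± 2.92 and 8.7 ± 4.8 in stem, progenitor and niche (SD, n = 4), and log2 fold changes between -0.05 and 0.26 (limma adjusted p of 0.792 to 0.958). Loxl2 was not tested.

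**Figure D2:**
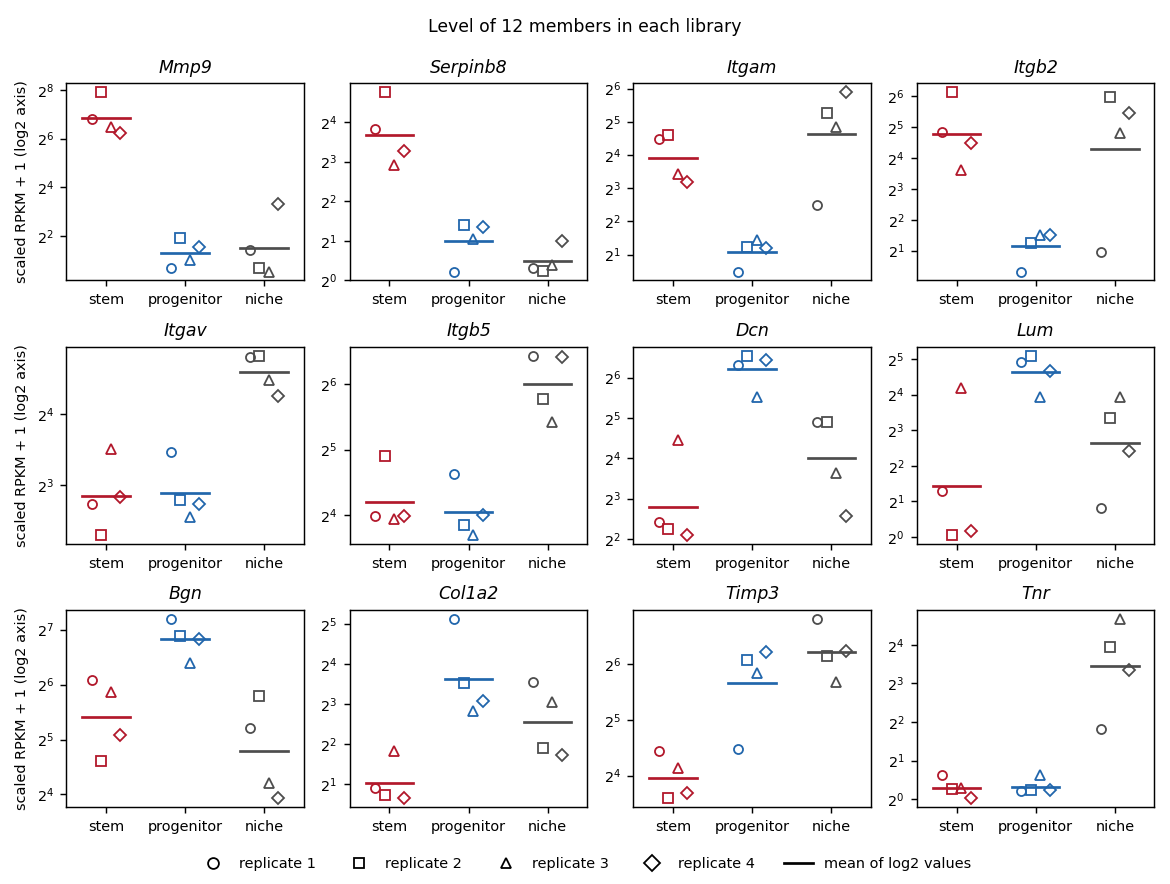
Scaled RPKM + 1 of 12 members on a log2 axis, 1 point per library by replicate number (n = 4 per group), with a line at the mean of the log2 values. Mmp9 and Serpinb8 are highest in the 4 stem libraries, Dcn, Lum and Bgn in progenitor, and Itgav, Itgb5 and Tnr in niche; niche replicate 1 lies far below its group for Itgam and Itgb2.

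Mmp9 had the largest fold change of the tested members in both comparisons with stem. It encodes a secreted gelatinase made by neutrophils, macrophages and, in the brain, by neurons and glia (ENSMUSG00000017737, chromosome 2, 164940780 to 164955850). Its level was 112, 237, 88.4 and 73.9 in stem libraries 1 to 4, 0.633, 2.82, 1.06 and 1.92 in those of progenitor and 1.7, 0.622, 0.474 and 9.11 in those of niche. All stem libraries lay far above all others, stem replicate 2 highest, and niche replicate 4 was the highest of the rest. On the log2 scale the difference was 5.55 ± 0.61 between stem and progenitor (SE, limma adjusted p = 6.7e-05) and 5.35 ± 0.61 between stem and niche (1.56e-05). Both calls held without any 1 library. Progenitor and niche differed by -0.20 ± 0.61 (0.871). Mmp9 made up 84% of the summed mean level of the 9 listed MMPs in stem.

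The other MMPs were called only between stem and niche. Of the 8 MMPs tested, 3 were lower in stem than in niche, none but Mmp9 was called between stem and progenitor, and none between progenitor and niche (3 at an unadjusted limma p under 0.05). Mmp17, anchored to the membrane by a lipid, was at 0.845 to 2.07 across stem, 0.957 to 1.87 across progenitor and 0.396, 15.4, 38.7 and 23.2 across niche replicates 1 to 4. Mmp2, the other gelatinase, was at 0.177 to 1.2 across stem, 0.169 to 1.13 across progenitor and 0.325, 11.9, 14.4 and 5.82 across niche. Niche replicate 1 lay below every stem library for Mmp17 and among the stem values for Mmp2, and the other niche libraries lay far above. Log2 fold changes between stem and niche were -2.31 ± 0.78 for Mmp17 (SE, limma adjusted p = 0.0443) and -1.92 ± 0.63 for Mmp2 (0.0416). Each was lost without any 1 library of these groups other than niche replicate 1 (0.0792 to 0.116 for Mmp17 and 0.0693 to 0.119 for Mmp2). Without niche replicate 1 the values were -3.46 (limma adjusted p = 2.35e-05) and -2.80 (0.000246), and both genes then also passed between progenitor and niche (-3.50 and -2.91, 4.27e-05 and 0.000345).

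Mmp16, a transmembrane MMP, was at 2.21, 2.74, 1.86 and 3.69 in stem and 25, 4.2, 21.8 and 9.04 in niche, without overlap. Its log2 fold change was -1.90 ± 0.52 (SE, limma adjusted p = 0.0164), lost without stem replicate 3 (-1.78, 0.055). Mmp14, the membrane enzyme that activates pro-MMP2, did not pass between stem and progenitor (11.5 ± 2.01 against 11.9 ± 2.61, SD, n = 4, -0.04 ± 0.50 on the log2 scale, limma adjusted p = 0.99). Mmp15 passed only with niche replicate 1 left out, at -2.01 between stem and niche (limma adjusted p = 0.005) and -1.77 between progenitor and niche (0.017). Mmp19 and Mmp24 passed in no comparison. Mmp3, stromelysin-1, was not tested: it was at 44 in progenitor replicate 1 and at most 0.444 in the other 11 libraries.

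None of the 4 ADAM genes and none of the 8 tested genes with an ADAMTS symbol passed in any comparison. Catalytic ADAMs shed membrane proteins, and ADAMTS enzymes cut lecticans and collagen precursors. The 8 include the ADAMTS-like genes Adamtsl1, Adamtsl2 and Adamtsl3, which are not counted as enzymes here. At an unadjusted limma p under 0.05, 1, 3 and 1 of the ADAMs and 2, 2 and 2 of the ADAMTS genes differed in the 3 comparisons. Adam10, the main sheddase of Notch receptors and the most abundant of the 4, was at 42.7, 35.6, 34.6 and 34.4 in the stem libraries, 55.6, 30.9, 24.7 and 26.3 in the progenitor libraries and 45.9, 99.5, 65.6 and 59.9 in the niche libraries. Stem and niche did not overlap (-0.81 ± 0.34, limma adjusted p = 0.0991). Adam23, a non-catalytic ADAM of neurons, was at 0.981 to 2.24 across stem, 5.37 to 12.9 across progenitor and 0.302, 23.4, 20.2 and 15.9 across niche, and Adamts4, an aggrecanase, at 0.691 to 3.69, 6.16 to 16.2 and 0.629, 24.1, 13.9 and 8.18. Niche replicate 1 was the lowest niche library for all 3. Without it, the 3 genes were lower in stem than in niche, at -1.05 for Adam10 (limma adjusted p = 0.0159), -3.09 for Adam23 (3.02e-05) and -2.33 for Adamts4 (0.0022), and Adam10 and Adam23 were also lower in progenitor than in niche (-1.24 and -1.26, 0.00951 and 0.0281). Stem and progenitor did not overlap for Adam23 or Adamts4, with log2 fold changes of -1.81 ± 0.75 (0.201) and -1.84 ± 0.70 (0.157).

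The 2 TIMPs listed had unlike patterns. Timp3, which binds to the matrix and inhibits MMPs, ADAMs and ADAMTS enzymes (chromosome 10, 86300372 to 86349506), was at 20.8, 11, 16.6 and 11.8 in the stem libraries, 21.2, 66.3, 56.1 and 73.3 in the progenitor libraries and 110.3, 69.4, 49.8 and 74.2 in the niche libraries. Every stem library lay below every other library, and progenitor replicate 1 lay just above the highest stem value. The fitted log2 difference between stem and niche was -2.25 ± 0.41 (SE, limma adjusted p = 0.001) and held without any 1 library. Between stem and progenitor it was -1.69 ± 0.41 (0.0187), lost without stem replicate 2 or 4 or progenitor replicate 2, 3 or 4 (0.0629 to 0.0757). Timp3 overlaps exons of Syn3, a neuronal gene on the opposite strand that is not listed. The use of strand in counting is not given, so reads of the pair cannot be told apart. Timp1, an inducible inhibitor, was at 2.15, 0, 3.04 and 1.06 in the stem libraries, 9.17, 1.87, 2.97 and 0.599 in the progenitor libraries and 0.239, 0, 0 and 0.183 in the niche libraries, with 0 or 1 read per niche library. Its log2 fold change between progenitor and niche was 1.75 ± 0.54 (SE, limma adjusted p = 0.0499), lost without progenitor replicate 1, 2 or 3 or niche replicate 2, 3 or 4 (0.0768 to 0.118). Progenitor had 208 reads in all and niche 2, a ratio at equal depth of 48.2 (exact 95% interval 13.2 to 401, counting error only).

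Of 18 serpins, 13 were tested, of which 1 was higher in stem than in progenitor, 1 higher and 2 lower in stem than in niche, and none called between progenitor and niche (3 at an unadjusted limma p under 0.05). Serpinb8, an inhibitor of furin-type proteases that stays inside the cell (ENSMUSG00000026315, chromosome 1, 107590006 to 107610484), was called higher in stem than in both other groups. It was at 13.1, 25.9, 6.48 and 8.61 in stem libraries 1 to 4, 0.168, 1.61, 1.06 and 1.55 in those of progenitor and 0.247, 0.172, 0.316 and 1.01 in those of niche. All stem libraries lay above all others, with stem replicate 2 highest, as for Mmp9. The log2 fold changes were 2.68 ± 0.48 between stem and progenitor (SE, limma adjusted p = 0.00284) and 3.20 ± 0.48 between stem and niche (2e-04), and both held without any 1 library.

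The promoter of Serpinb8 is shown because the gene stood out in stem. It covers the 250 bases before the start of the gene and was taken from RefSeq (GRCm38.p6, + strand), where 71 of the 107 members had an entry. Capitals mark matches on either strand to GAGGAA, a core bound by ETS factors such as PU.1 of macrophages, to TGANTCA, the site of AP-1, and to GGGCGG, the GC box.
Serpinb8 (chr1:107589756-107590005): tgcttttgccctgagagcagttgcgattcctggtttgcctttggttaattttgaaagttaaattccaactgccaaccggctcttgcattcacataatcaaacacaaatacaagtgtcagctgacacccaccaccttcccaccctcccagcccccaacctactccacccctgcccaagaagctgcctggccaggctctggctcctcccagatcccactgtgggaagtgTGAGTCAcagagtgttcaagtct
TGAGTCA began 23 bases before the start, and neither of the other motifs was found in this window. Over all 32851 promoters of the same length, 23.3% held GAGGAA, 6.75% TGANTCA, 32.7% GGGCGG and 12.4% TATAAA. Over 80 promoters of members the shares were 26.2%, 12.5%, 43.8% and 13.8%. The neighbours of Serpinb8 on chromosome 1, Serpinb2, Serpinb7 and Serpinb10, had too few reads to be tested.

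Serpini1, neuroserpin, which inhibits tissue plasminogen activator, was at 2.78, 0.556, 0.832 and 3.78 in the stem libraries, 19.9, 11.3, 9.43 and 11 in the progenitor libraries and 0.761, 28.2, 41 and 15.7 in the niche libraries. Stem lay below progenitor without overlap, and niche replicate 1 lay among the stem values. The log2 fold changes were -2.36 ± 0.79 between stem and niche (SE, limma adjusted p = 0.0437) and -2.32 ± 0.79 between stem and progenitor (0.0994). The first was lost without any 1 library of its groups other than niche replicate 1 (0.055 to 0.12). Serpina3n, an acute phase inhibitor of reactive astrocytes, had the highest mean of all members in niche, 97.9 ± 67.9 (SD, n = 4), but ranged from 2.48 in niche replicate 1 to 158 in replicate 2. It was at 2.47 to 13.2 in stem and 2.17 to 27.5 in progenitor, and did not pass against niche (-2.64 ± 1.02, limma adjusted p = 0.0771, and -2.03 ± 1.02, 0.215). Without niche replicate 1 it passed in both, at -4.03 (0.000394) and -3.43 (0.00225). It belongs to a cluster of near-identical Serpina3 genes on chromosome 12, among which reads may be split. Serpinb1b was lower in stem than in niche (-1.50 ± 0.51, limma adjusted p = 0.0458), at 0 to 0.0779 against 0.337 to 6.25, and like Col27a1 is given because it was called. The other tested serpins passed in no comparison. Serpind1, heparin cofactor II, had its highest mean in progenitor, at 19.9, 2.05, 5.93 and 4.71 against 3.67, 0.0426, 0 and 0 in stem (-2.25 ± 0.72, limma adjusted p = 0.0795).

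Of 11 integrin alpha genes and 5 integrin beta genes tested, Itgam and Itgb2 were called higher in stem than in progenitor. Between progenitor and niche 1 alpha gene was higher and 3 lower in progenitor, and 2 beta genes were lower. Against niche, 2 alpha genes and 1 beta gene were lower in stem. Itgam and Itgb2 encode the subunits of the macrophage integrin Mac-1, the complement receptor CR3. Itgam (ENSMUSG00000030786, chromosome 7, 128062640 to 128118491) was at 21.4, 23.3, 9.77 and 8.09 in stem libraries 1 to 4, 0.406, 1.33, 1.71 and 1.28 in those of progenitor and 4.6, 37.7, 27.5 and 58.2 in those of niche. Every progenitor library lay below every other library, and niche replicate 1 was the lowest of its group. The log2 fold change was 2.84 ± 0.64 between stem and progenitor (SE, limma adjusted p = 0.012), lost without stem replicate 2 (2.61, 0.0565), and -3.54 ± 0.64 between progenitor and niche (0.00185), which held without any 1 library. Stem and niche differed by -0.70 ± 0.64 (0.47), and -1.48 (0.0225) without niche replicate 1.

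Itgb2 (chromosome 10, 77530252 to 77565708) was at 27.5, 68.6, 11.3 and 21.6 in the stem libraries, 0.253, 1.38, 1.83 and 1.86 in the progenitor libraries and 0.952, 61.1, 27.3 and 42.7 in the niche libraries. All stem libraries lay above all progenitor libraries, and niche replicate 1 lay within the progenitor range. The log2 fold changes were 3.62 ± 0.87 between stem and progenitor (SE, limma adjusted p = 0.0179) and -3.15 ± 0.87 between progenitor and niche (0.0285). The first was lost without stem replicate 1 or 2 or progenitor replicate 1 (0.0525, 0.0823 and 0.0755), and the second without any 1 library other than niche replicate 1 (0.06 to 0.0804). Stem and niche differed by 0.47 ± 0.87 (0.743). The other alpha partners of Itgb2 passed in no comparison. Itgax and Itgad, next to Itgam on chromosome 7, were highest in niche replicate 1 at 3.2 and 24.7, and Itgal, the alpha subunit of LFA-1, was at 0 to 1.32 in stem and at most 0.164 elsewhere.

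Macrophage markers, like these members, were high in stem and low in progenitor, but in niche the levels parted. Within stem, replicate 2 had the highest sum and the highest levels of Mmp9, Serpinb8, Itgam and Itgb2. In niche, where the sum was 3424 to 5895, Mmp9 was at 0.474 to 9.11 and Serpinb8 at 0.172 to 1.01. In niche replicate 1 the sum was 5395, within the range of the other niche libraries, while Itgam was at 4.6 and Itgb2 at 0.952, both below all other niche libraries. Of the 11 markers, 4 were called higher and 2 lower in stem than in niche. Mrc1 and Cd163, endocytic receptors of the macrophages at brain borders, were at 181 to 740.3 and 37.3 to 169.5 in stem, 4.78 to 13.7 and 0.408 to 4.68 in progenitor and 4.96 to 12.1 and 0.395 to 2.92 in niche. Trem2, a receptor of microglia and other macrophages, was at 60.5 to 199.7 across stem, 6.15 to 8.69 across progenitor and 162 to 464 across niche. The part of macrophage RNA in the levels of Mmp9, Serpinb8, Itgam and Itgb2 was not tested.

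**Figure D3:**
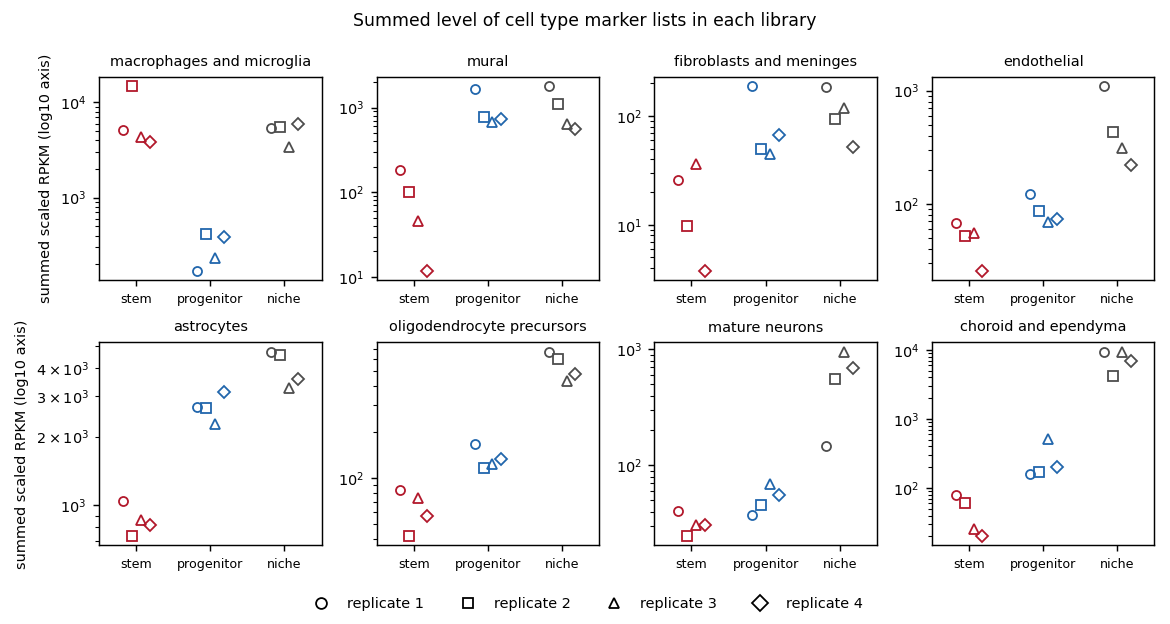
Summed scaled RPKM of 8 marker lists on a log10 axis, 1 point per library by replicate number (n = 4 per group). Macrophage and microglia markers are high in stem and niche and low in progenitor, mural markers are lowest in stem, and mature neuron markers are highest in niche with niche replicate 1 below the other 3.

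Itgav and Itgb5 form a vitronectin receptor, which also activates latent TGF-beta and serves phagocytes. Itgav (chromosome 2, 83724397 to 83806916) was at 5.62, 3.9, 10.4 and 6.13 in the stem libraries, 10.05, 5.93, 4.87 and 5.63 in the progenitor libraries and 27.1, 27.4, 21.4 and 18.2 in the niche libraries. Itgb5 (chromosome 16, 33829665 to 33949338) was at 14.8, 29, 14.4 and 14.8 in the stem libraries, 23.8, 13.4, 12 and 15 in the progenitor libraries and 85.5, 53.5, 41.8 and 84 in the niche libraries. For both genes every niche library lay above every other library. Log2 fold changes of Itgav were -1.76 ± 0.42 between stem and niche (SE, limma adjusted p = 0.00669) and -1.71 ± 0.42 between progenitor and niche (0.0145). The first held without any 1 library but not with scaling by library size alone (-1.12, 0.0541), and the second was lost without progenitor replicate 2, 3 or 4 (0.0509, 0.06 and 0.0535). For Itgb5 they were -1.80 ± 0.38 (limma adjusted p = 0.00313) and -1.96 ± 0.38 (0.00306), and both held without any 1 library. Stem and progenitor differed by -0.05 ± 0.42 for Itgav and 0.16 ± 0.38 for Itgb5 (0.981 and 0.917).

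The promoters of these 3 integrin genes are shown because all 3 were called lower in progenitor than in niche, while between stem and niche Itgav and Itgb5 were called and Itgam was not. They cover the same 250 bases before the start as that of Serpinb8 above, from the same RefSeq table, and capitals again mark the same 3 motifs.
Itgam (chr7:128062390-128062639): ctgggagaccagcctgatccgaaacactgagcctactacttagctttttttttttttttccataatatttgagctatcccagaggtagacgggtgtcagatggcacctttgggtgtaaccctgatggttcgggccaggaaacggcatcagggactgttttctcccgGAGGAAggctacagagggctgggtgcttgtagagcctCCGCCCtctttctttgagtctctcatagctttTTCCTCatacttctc
Itgav (chr2:83724147-83724396): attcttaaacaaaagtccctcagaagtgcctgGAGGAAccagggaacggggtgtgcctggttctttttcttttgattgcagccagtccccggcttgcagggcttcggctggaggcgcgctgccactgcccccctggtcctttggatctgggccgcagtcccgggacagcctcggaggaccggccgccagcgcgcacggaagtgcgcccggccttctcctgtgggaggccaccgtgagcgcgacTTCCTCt
Itgb5 (chr16:33829415-33829664): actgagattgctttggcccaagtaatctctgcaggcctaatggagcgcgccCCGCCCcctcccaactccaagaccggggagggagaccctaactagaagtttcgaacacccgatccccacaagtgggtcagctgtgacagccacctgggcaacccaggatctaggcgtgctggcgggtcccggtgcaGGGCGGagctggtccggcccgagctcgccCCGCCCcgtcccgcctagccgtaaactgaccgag
In Itgam, GAGGAA began 84 bases before the start and its reverse complement TTCCTC 15 bases before it, with a reverse GC box at 47. Itgav had GAGGAA at 218 and TTCCTC at 7, and Itgb5 had GC boxes at 199, 63 and 34. None of the 4 windows held TATAAA. A match describes letters only.

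Itga7, a laminin receptor of muscle and vessel walls, was the third subunit lower in both GFP-positive groups than in niche. It was at 2.44, 0, 2.1 and 1.2 in the stem libraries, 2.65, 1.66, 1.56 and 1.09 in the progenitor libraries and 14.9, 3.98, 9.22 and 9.09 in the niche libraries, with niche above all others. In the fit the log2 fold change was -2.11 ± 0.51 between stem and niche (SE, limma adjusted p = 0.00746), which held without any 1 library, and -1.83 ± 0.51 between progenitor and niche (0.0286), lost without progenitor replicate 2, 3 or 4 or niche replicate 4 (0.0521 to 0.0974). Itgae, the alpha subunit that binds E-cadherin, was at 5.8, 1.15, 1.1 and 1.73 in progenitor. It was at most 0.251 in niche, where 0 to 2 reads per library were found. In stem it was at 1.63, 1.3, 0 and 1.9, not called against progenitor (-0.57 ± 0.45, limma adjusted p = 0.634). Its log2 fold change between progenitor and niche was 1.46 ± 0.45 (SE, limma adjusted p = 0.0452), lost without any 1 library other than niche replicate 1 (0.0642 to 0.0933). The summed reads were 214 and 3, a ratio at equal depth of 33 (exact 95% interval 11.2 to 162, counting error only). Itgb1, the common beta subunit and the most abundant of the integrin genes listed, passed in no comparison. It was at 57.6 ± 5.56 in stem, 48 ± 5.76 in progenitor and 70.1 ± 50.2 in niche (SD, n = 4), and niche replicate 1 reached 144. Its log2 fold changes lay between -0.32 and 0.26, with limma adjusted p of 0.615 to 0.932. Itga6, a laminin receptor subunit, was at 3.38 to 9.46 across stem, 4.16 to 4.96 across progenitor and 1.69 to 20.7 across niche, and its partner Itgb4 at 0.101 to 3.07, 0.576 to 3.82 and 0.644 to 1.96. Both overlapped in every comparison, and Itga4, Itga9, Itga11 and Itgbl1 passed in none.

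**Figure D4:**
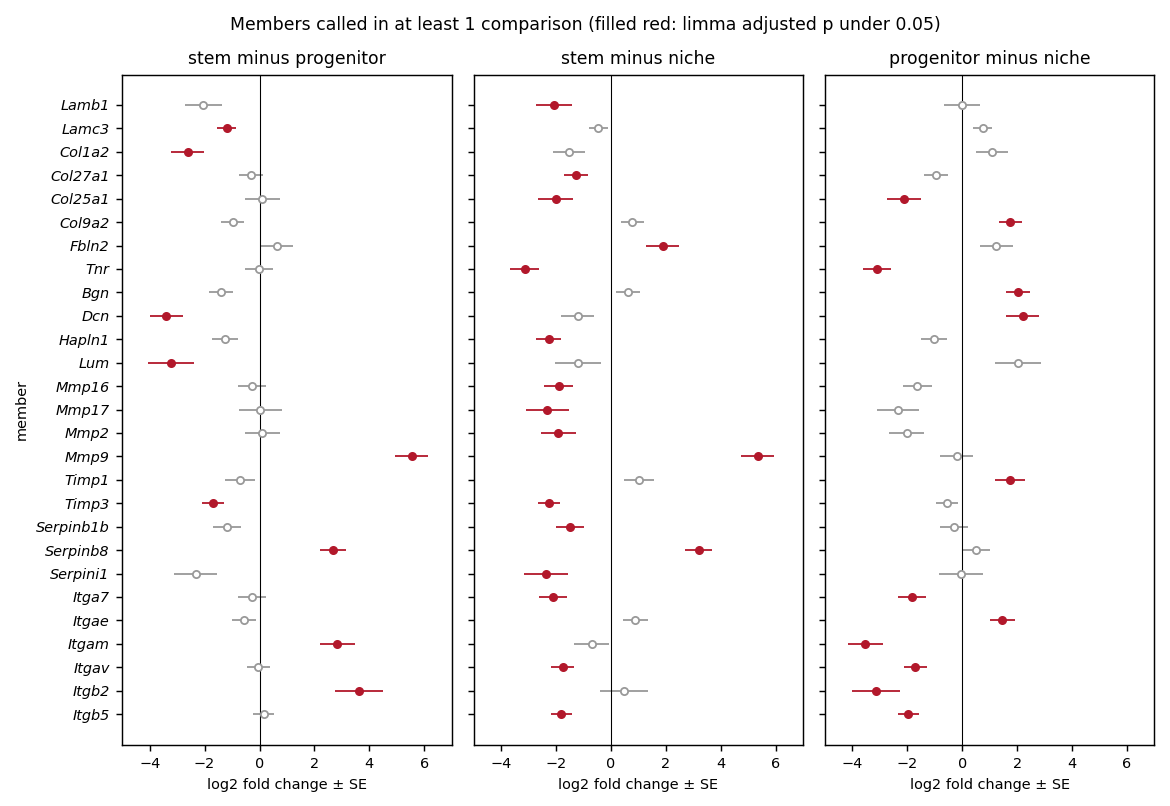
Log2 fold changes with their SE for the 27 members called in at least 1 of the 3 comparisons, 1 panel per comparison, with filled red points where the limma adjusted p was under 0.05. Mmp9 and Serpinb8 lie to the right in both stem panels, and Tnr, Itgav, Itgb5 and Itga7 lie to the left in both niche panels.

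Over the 3 comparisons, 27 members were called, 11 of them in 2 comparisons and none in all 3, and 63 tested members in none. Of the 36 calls of named members, 17 held without any 1 library of the 2 groups compared. These were 4 between stem and progenitor, 8 between stem and niche and 5 between progenitor and niche. Exons of 6 of the 27 overlap exons of another annotated gene: Timp3, Itga7, Itgav, Lamc3 and Tnr on the opposite strand, and Itgam on the same strand.

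Genes that act with the members but lie outside the symbol rule were counted from lists of the same pathways. The lists were chosen with earlier results of these data known. Of all genes tested, 7.11% were called between stem and progenitor, 21.6% between stem and niche and 11.5% between progenitor and niche. Among other matrix proteins, 22 were tested, of which 1 was higher and 5 lower in stem than in progenitor, and 1 higher and 10 lower in stem than in niche, with median log2 fold changes of -1.47 and -1.34. Tgfbi, a collagen-binding protein induced by TGF-beta, was at 136, 303, 74.2 and 68.6 in stem and 5.85 to 8.33 in progenitor (3.94 ± 0.58, SE, limma adjusted p = 0.000673). Vtn, vitronectin, the ligand of the alpha-v, beta-5 integrin, was at 130.4, 61, 38.2 and 7.71 in the stem libraries, 1161, 557, 487 and 518 in the progenitor libraries and 1160, 631, 428 and 339.6 in the niche libraries. Stem lay below both groups, with log2 fold changes of -3.96 ± 0.63 (limma adjusted p = 0.00118) and -3.81 ± 0.63 (0.00047). Vtn is itself on the list of mural markers. Ecm2, a matrix protein with leucine-rich repeats, was lower in stem than in progenitor (-2.98, 0.00244). Spock3, a testican proteoglycan, was lower in stem than in niche (-4.27, 8.38e-06), as was Spock2 (-3.85, 1.98e-05). Compared with niche, 4 genes were lower in progenitor, led by Spock2 (-2.95, limma adjusted p = 0.000449) and Spock3 (-2.44, 0.00205). The 2 higher genes were Fmod, the collagen-binding fibromodulin (3.20, 0.00509), and Ecm2 (1.70, 0.0481).

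The list of the plasminogen system and lysosomal proteases held 8 called genes of 14 tested in each comparison. That is 57.1%, beside 7.11%, 21.6% and 11.5% of all genes. The list also held genes outside both kinds, among them F3, Bsg, A2m and Cstb. Medians were 0.00, -0.88 and -1.61 on the log2 scale. In stem, 5 were higher and 3 lower than in progenitor. Ctsc and Ctss, cysteine cathepsins of leukocytes, were at 137 to 546 and 459 to 1864 in stem against 5.13 to 15.7 and 42.4 to 70.3 in progenitor, log2 fold changes of 4.45 (limma adjusted p = 6.7e-05) and 3.75 (5.85e-05). Ctss is on the macrophage marker list. Plat, tissue plasminogen activator and the target of neuroserpin, was lower in stem (-2.57, limma adjusted p = 0.0177), as was Htra1, a secreted protease (-2.13, 0.00444). Between stem and niche 2 were higher, Ctsc and Plau, the urokinase gene (2.33 and 2.03, limma adjusted p = 0.00273 and 0.027), and 6 lower, led by Htra1 (-5.20, 7.47e-07) and F3, tissue factor (-4.29, 8.79e-07). Between progenitor and niche all 8 called genes were lower in progenitor, led by Ctss (-5.17, 2e-06) and Htra1 (-3.07, 0.000142).

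Hyaluronan genes, 7 tested, gave 2 lower in stem than in progenitor, Tnfaip6, which modifies hyaluronan in inflamed tissue (-2.50, limma adjusted p = 0.00955), and Itih5, which stabilises it (-2.28, 0.0065). Both were also lower in stem than in niche. Ptx3, a pentraxin of the hyaluronan matrix, was at 11.2 to 21.7 across stem, 19.4 to 62 across progenitor and 0.266 to 1.45 across niche, and was higher in both GFP-positive groups than in niche (3.47 and 4.31, 5.9e-05 and 2.17e-05). Of 15 tested genes of the integrin adhesion complex, 2 were higher in stem than in progenitor, among them Lyn, a Src family kinase (2.12, limma adjusted p = 0.0335). Against niche 1 was higher in stem, Pxn, paxillin (1.71, 0.0375), and 3 lower, led by Lims2 (-4.82, 2.08e-05) and Parvg (-3.23, 0.000707), partners of integrin-linked kinase. In progenitor 4 were lower than in niche, led by Parvg (limma adjusted p = 5.27e-05, log2 fold change -4.84).

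Collagen assembly genes gave few calls. Of 13 tested, none passed between stem and progenitor with limma (2 at an unadjusted p under 0.05). Fkbp10, a collagen chaperone, was higher in stem than in niche (1.88, limma adjusted p = 0.00476) and in progenitor than in niche (1.5, 0.0302), and Pcolce2 was lower in stem than in niche (-1.41, 0.049). Of 5 genes of latent TGF-beta activation, 2 were lower in both GFP-positive groups than in niche. Ltbp1, the binding protein that stores latent TGF-beta in the matrix, differed by -3.25 in stem (limma adjusted p = 0.000405) and -2.19 in progenitor (0.0146), and the receptor Tgfbr1 by -1.66 (0.00972) and -2.50 (0.000934). Of 7 other matrix receptors, 4 were lower in stem than in niche and 3 in progenitor than in niche. Cd47, a thrombospondin receptor, was among them in both (-1.61 and -1.43, limma adjusted p = 0.00485 and 0.0183), as was Bsg, which induces MMPs (-2.57 and -2.70, 0.0111 and 0.0148). Mcam, an adhesion molecule of mural cells, was lower in stem than in progenitor (-2.90, 0.0165). These genes were not refitted with libraries left out.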

How the data were processed

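RNA sequencing of the 12 libraries was deposited by the authors as a table of log2(RPKM + 1) values of 10749 genes. The genome build named is GRCm38 (mm10), per the submitters' processing notes. Which aligner and counter were used, and whether by strand, was not given in the sources used here. Values were whole multiples of what 1 read is worth (100% whole, tolerance 1e-05), which returned reads and depth; exon lengths equalled the annotation (GENCODE vM21) for 1211 genes and were otherwise taken from the values. Of the gene identifiers, 10579 had a symbol.

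RPKM values were divided by scaling factors computed from the recovered reads by the trimmed mean of M-values (0.418 in niche replicate 1 to 1.25). Genes with at least a CPM of 0.767 (10 reads in the median library) in 4 libraries and 15 reads in all, 8360 in number, were tested on log2(scaled RPKM + 1) with limma 3.58.1 in R 4.3.3 (trend and robust variance, all 12 libraries in 1 fit, Benjamini-Hochberg adjustment, two-sided, threshold 0.05). A pseudocount of 1 understates changes of low genes. A level of 3 reads is 0.131 to 0.395 CPM.

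Groups follow the sort labels. Members and gene lists were chosen with earlier results of these data known. Named members were the 10 called with the largest rise and the 10 with the largest fall in each comparison, the most abundant of each role group and a list of well-known matrix, protease and integrin genes; others are named to account for every group, after their values were seen. In each pathway list they were the 2 called genes with the largest rise and the 2 with the largest fall per comparison, except an item that is not reported here. Sequences came from RefSeq. Replicate numbers were not taken to pair the libraries. Alternatives were 2 other scalings, 2 other pseudocounts, no filter, voom on recovered reads, a replicate block, fits of 2 groups, and libraries left out. Single libraries were left out only from the groups compared. The fit was tested on simulated data. Text and figures used Python 3.11.15, pandas 2.3.3, numpy 2.4.6 and matplotlib 3.10.9.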

Additional observations from a re-analysis of the deposited data

Results flagged for a closer look

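Of 138 groups of 4 libraries (46 named members in 3 groups), 14 had 1 library whose gap to the nearest of the others exceeded Dixon's 95% critical value as a share of the range. Gap and range were taken on the log2(scaled RPKM + 1) scale, while the levels below are scaled RPKM. Chance gives this in about 1 group in 20. Progenitor replicate 1 was above the rest of its group for Col1a1 (16.7 scaled RPKM against 3.76 to 4.64), Col4a2 (7.91 against 2.38 to 2.71) and Col9a3 (9.47 against 5.29 to 5.83), and below it for Loxl3 (3.68 against 8.81 to 9.92). Niche replicate 1 was below its group for Serpina3n (2.48 against 99.9 to 158) and Adam23 (0.302 against 15.9 to 23.4) and above it for Itgax (3.20 against 0 to 0.0721).

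In stem, replicate 2 was the high library for Itgb5 (29.0 against 14.4 to 14.8), Col4a2 (1.73 against 1.22 to 1.26) and Thbs1 (1.08 against 0.0364 to 0.119). Stem replicate 3 was high for Dcn (20.7 against 3.28 to 4.33), and stem replicate 1 for Adam10 (42.7 against 34.4 to 35.6). Progenitor replicate 3 was high for Tnr (0.535 against 0.166 to 0.185) and Col25a1 (0.286 against 0.0141 to 0.0302), both at low levels.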

How the results depend on the processing

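No fold change of a named member that was called reversed under any alternative run. Of the values of single named members under an alternative, 2118 kept their side of the threshold, 154 lost it and 61 gained it. Fitting only the 2 groups compared gave 19 members between stem and progenitor (against 9), 9 between stem and niche (against 17) and 7 between progenitor and niche (against 12), with 80, 68 and 85 members tested. Between stem and niche, library size scaling gave 11 and no filter on low values 10. Leaving out progenitor replicate 1 and niche replicate 1 together gave 14, 32 and 19 members, and 36 (against 20) for any difference among the groups. Leaving out 1 library gave 4 to 8 members between stem and progenitor, lowest without stem replicate 2, 9 to 28 between stem and niche and 5 to 24 between progenitor and niche, both highest without niche replicate 1, and 14 to 37 for any difference. The cause of these moves was not tested. A replicate block gave 9, 18, 13 and 22 members. Deviations of same-numbered libraries from their group means correlated at -0.128 to 0.206, those of other pairs at -0.191 to 0.142. Between progenitor and niche the same-numbered pairs were at 0.166, 0.03, 0.206 and 0.092, the other pairs at -0.191 to 0.126. The numbers were not taken to pair the libraries, and an effect shared by same-numbered libraries was not tested. At the lowest depth, 3 reads stand for 0.395 CPM, and differences between levels below that were not detectable.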
